A study of Mus musculus with 10 samples.

Results

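The genes described here carry dietary fat through the enterocyte, from uptake of fatty acids to the assembly of chylomicrons. They are 10 of the 35275 genes in the deposited expression table and were picked by symbol, with earlier results of these data known. They are the apolipoprotein genes Apoa1, Apoa4, Apob and Apoc3, the transfer protein gene Mttp, the fatty acid-binding protein genes Fabp1 and Fabp2, the scavenger receptor gene Cd36, and the acyltransferase genes Dgat1 and Mogat2. RNA of jejunal epithelial cells was sequenced from 10 adult C57BL/6 mice, all labelled male, in 3 groups that were used to ask how loss of the motor protein myosin Vb (MYO5B) and treatment with lysophosphatidic acid (LPA) change the epithelium. Every mouse, controls included, carried floxed Myo5b alleles and a tamoxifen-inducible Cre recombinase driven by the villin promoter (VillinCreERT2;MYO5Bflox/flox), which is active in intestinal epithelium.

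The 3 control mice (numbers 2, 4 and 5) received corn oil and were not induced. The 4 MYO5B-knockout mice (3, 5, 6 and 7) received tamoxifen (2 mg) and then vehicle (0.1% BSA in PBS) for 4 days. The 3 LPA-treated MYO5B-knockout mice (1, 4 and 5) received tamoxifen and LPA (3 mg/kg) for 4 days, although another line of the label of mouse 1 names vehicle. Their titles begin with ipL, read here as LPA by intraperitoneal injection. No vehicle injection is given for the controls, so that Myo5b deletion, tamoxifen and injection cannot be told apart between control and knockout mice. Nothing in the labels ties the mice to litters or batches.

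In the absorbing enterocyte, fatty acids and monoacylglycerol enter from the lumen, are bound by cytosolic carriers and are rebuilt into triglyceride at the endoplasmic reticulum. There the microsomal triglyceride transfer protein loads the triglyceride onto apolipoprotein B, and the particle takes up smaller apolipoproteins before it leaves for the lymph as a chylomicron. The jejunum is the main site of this traffic, and several of these transcripts are among the most abundant of its epithelium.

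Apoa1, Apoc3 and Apoa4 are neighbours on chromosome 9, within 14.88 kb (chr9:46228580-46243459 on GRCm38), with Apoa1 and Apoa4 on the plus strand and Apoc3 on the minus strand between them. Fabp1 (chromosome 6) and Fabp2 (chromosome 3) encode related carriers at separate loci, chr6:71199827-71205023 and chr3:122895072-122899506, both on the plus strand. Apob lies at chr12:7977648-8016835 on the plus strand, and Mttp (chr3:138089855-138143388), Cd36 (chr5:17781690-17888959), Dgat1 (chr15:76502015-76511951) and Mogat2 (chr7:99219084-99238619) lie on the minus strand. RefSeq promoter sequences (GRCm38.p6) were found for 7 of the 10 genes, and those of Apoa1, Apoa4, Fabp1 and Fabp2 are shown because these 2 sets of related genes differed in level among the mice. Each is the part of the 250 bases before the RefSeq start that also lies before the gene start in the deposited table, on the plus strand, 5′ to 3′. The Apoa1 stretch is chr9:46228380-46228579, that of Apoa4 is chr9:46240594-46240695, that of Fabp1 is chr6:71199629-71199826 and that of Fabp2 is chr3:122894822-122895071.
Apoa1: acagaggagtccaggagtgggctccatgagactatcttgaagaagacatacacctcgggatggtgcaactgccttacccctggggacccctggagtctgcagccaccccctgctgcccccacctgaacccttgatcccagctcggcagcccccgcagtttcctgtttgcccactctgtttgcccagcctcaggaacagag
Apoa4: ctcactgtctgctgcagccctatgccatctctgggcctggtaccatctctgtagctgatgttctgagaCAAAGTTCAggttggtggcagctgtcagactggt
Fabp1: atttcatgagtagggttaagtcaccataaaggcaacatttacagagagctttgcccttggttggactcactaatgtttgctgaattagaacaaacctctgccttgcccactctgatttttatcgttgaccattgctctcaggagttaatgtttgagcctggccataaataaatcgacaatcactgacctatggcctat
Fabp2: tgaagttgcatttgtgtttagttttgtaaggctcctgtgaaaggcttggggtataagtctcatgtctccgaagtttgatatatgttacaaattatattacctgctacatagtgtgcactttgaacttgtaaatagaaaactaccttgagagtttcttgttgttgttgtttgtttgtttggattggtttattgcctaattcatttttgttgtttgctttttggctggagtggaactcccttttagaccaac
Capitals mark the letters CAAAGTTCA, a form of the element bound by the nuclear receptor HNF4A, which lay between 182 and 174 bases before the RefSeq start of Apoa4 and occurred in 0.335% of 32851 mouse promoters. The search covered 5 motifs on both strands of the 250 bases: CAAAGTCCA and CAAAGTTCA for HNF4A, the repeat of AGGTCA with 1 base between its copies for paired nuclear receptors, AGATAAG for GATA factors and TATAAA for the TATA box. TATAAA was found between 60 and 55 bases before the RefSeq start of Apob and between 30 and 25 bases before that of Fabp1. It occurred in 12.4% of promoters. The Fabp1 match lies past the gene start in the deposited table and so outside the stretch shown, and the Apob sequence is not shown. The other 3 motifs had no match in these 7 windows.

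Between 1.09e+07 and 2.45e+07 reads lay on genes in each library, recovered from the deposited FPKM, a level that divides the fragments on a gene by its length and by the library's total. Myo5b lay between 16.5 and 32.0 FPKM in control mice, between 10.5 and 13.6 FPKM in MYO5B-knockout mice and between 10.3 and 11.7 FPKM in LPA-treated mice. All 8 epithelial marker genes were read in every library. Their summed level was 5320 to 7404 FPKM in control, 7880 to 10173 FPKM in MYO5B-knockout and 8074 to 10925 FPKM in LPA-treated mice. Control mouse 2 and MYO5B-knockout mouse 3 gave libraries that stood apart, with 12242 and 12601 genes detected against 17309 to 18267 in the others and with 17.4% and 18.0% of reads on mitochondrial genes against 1.98% to 3.50%. These 2 libraries and that of LPA-treated mouse 5 also held 103792, 108575 and 21307 FPKM of the mitochondrial gene mt-Nd6, whereas the other 7 held between 2077 and 3786 FPKM. MYO5B-knockout mouse 3 and LPA-treated mouse 1, both labelled male, had 0 reads on 4 Y-linked genes. They held 8.41 and 15.1 FPKM of Xist, a transcript of female cells, against at most 0.0524 FPKM in the other libraries. Whether their labels are right was not tested. Several results, but not all, are given with and without the libraries that stood apart or had high mt-Nd6. The division by mt-Nd6 was chosen after seeing the data.

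The 10 genes together took between 3.09% and 4.20% of all reads on genes in control mice, between 1.40% and 2.88% in MYO5B-knockout mice and between 2.42% and 4.29% in LPA-treated mice. The lowest share was that of MYO5B-knockout mouse 3 and the highest that of LPA-treated mouse 4. The knockout range lay below the control range, whereas the LPA range overlapped both.

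**Figure D1:**
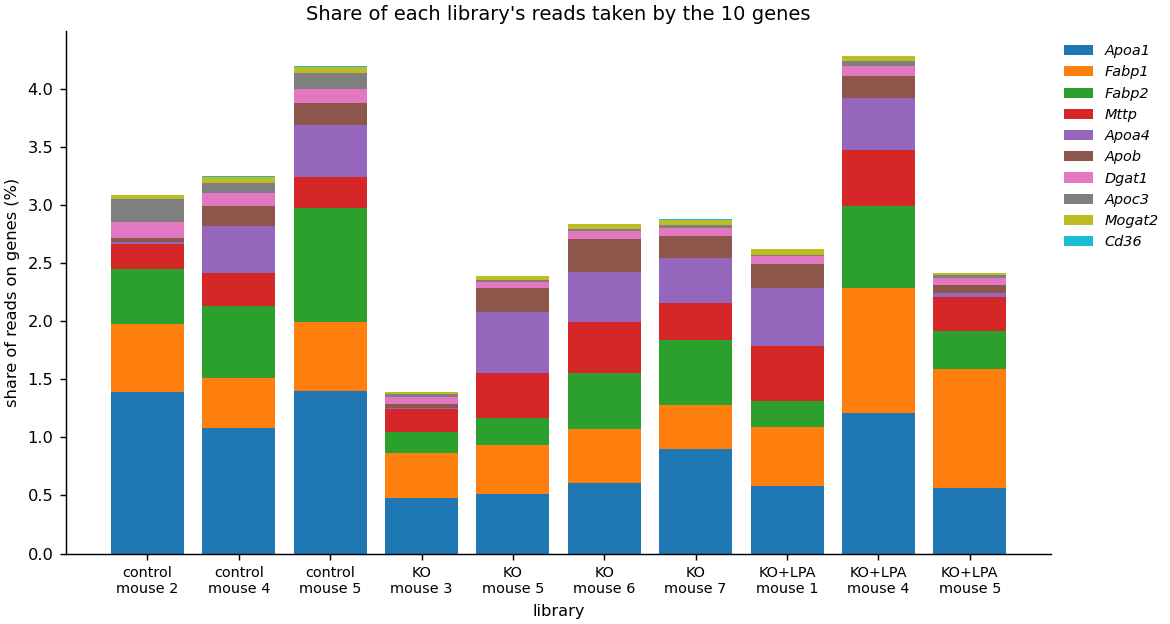
Stacked bars, starting at 0, give the percent of each library's reads on genes that fell on each of the 10 genes, with 1 bar per mouse. The bars of the 4 MYO5B-knockout mice (1.40% to 2.88%) were shorter than those of the 3 control mice (3.09% to 4.20%).

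FPKM is a level per length, so that the genes could be ordered within a group. In control mice, Apoa1 had the highest mean (12460 ± 1778 FPKM, SD, n = 3), followed by Fabp1 (9717 ± 1599) and Fabp2 (7162 ± 2735), whose ranges overlapped. Apoc3 (2010 ± 796), Apoa4 (1616 ± 1301), Dgat1 (635 ± 61.3) and Mttp (600.0 ± 85.8) followed, each overlapping in range with the gene before it except Apoc3. Mogat2 (267 ± 71.3), Apob (93.9 ± 60.0) and Cd36 (13.1 ± 11.5) closed the order, each below the range of the gene before it. In MYO5B-knockout mice Fabp1 came first (7399 ± 712 FPKM, n = 4) and Apoc3 stood at the seventh place instead of the fourth (308 ± 92.1). In LPA-treated mice Fabp1 again came first (15748 ± 5624 FPKM, n = 3) and Apoc3 was the sixth (446 ± 239).

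**Figure D2:**
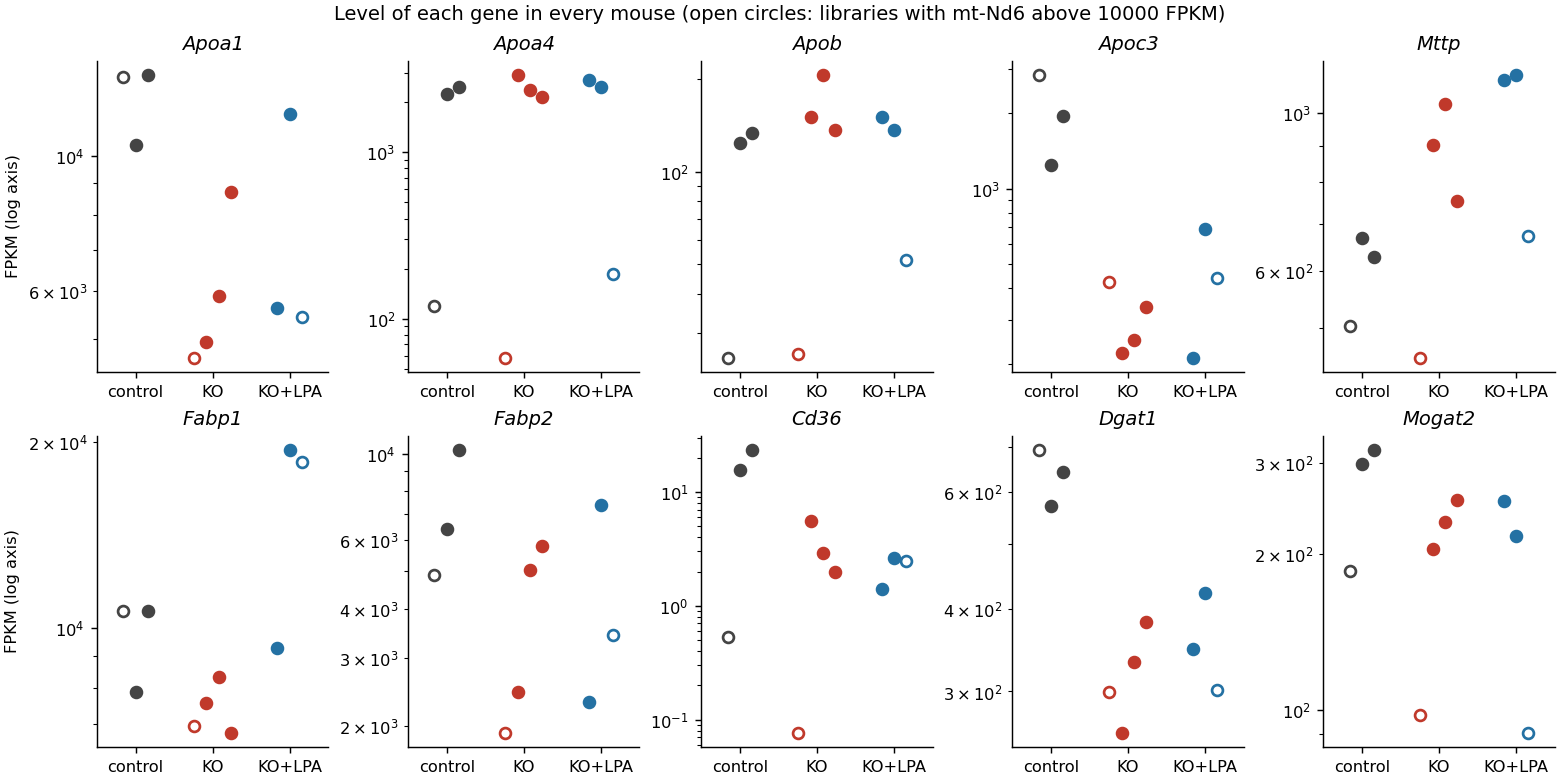
Each panel plots the FPKM of 1 gene on a log axis for every mouse, with control mice in black, MYO5B-knockout mice (KO) in red and LPA-treated knockout mice (KO+LPA) in blue. Open circles are the 3 libraries with mt-Nd6 above 10000 FPKM, which hold the lowest Apoa4 (58.3 to 184.8 FPKM) and Apob (24.9 to 51.6 FPKM), whereas Apoc3 and Dgat1 are lower in every knockout mouse than in any control mouse.

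MYO5B loss was addressed by comparing the 4 MYO5B-knockout with the 3 control mice. Of the 10 genes, Apoc3 fell, and the other 9 did not pass the test (limma, adjusted p of at most 0.05 over 15729 genes). Over all genes tested, 2.01% were called, 0.884% lower and 1.13% higher. The median log2 fold change of the 10 genes was -0.74, with 7 values below 0, beside a median of 0.29 over all genes, which median-ratio scaling brought to 0.039. Knockout and control mice did not overlap for Apoc3, Apoa1 and Dgat1, all lower, as was the case for 6.20% of all genes.

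Apoc3 encodes apolipoprotein C-III, an inhibitor of lipoprotein lipase that is carried on triglyceride-rich particles. It was measured at 2834, 1245 and 1953 FPKM in controls 2, 4 and 5. Its level was 424, 221, 249 and 338 FPKM in MYO5B-knockout mice 3, 5, 6 and 7. All knockout values were thus below the lowest control value. The log2 fold change was -2.67 (SE 0.45, 95% confidence interval -3.67 to -1.68, limma's adjusted p = 0.0200). Without the 2 libraries that stood apart it was -2.56 (adjusted p = 0.0174). The call was lost when control mouse 5, MYO5B-knockout mouse 5 or MYO5B-knockout mouse 6 was left out (adjusted p = 0.0982, 0.0737 and 0.0590), with log2 fold changes between -2.98 and -2.39 over the 10 fits that each left out 1 mouse.

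Marker lists of other cell states also differed in range between the groups. The summed level of 10 enterocyte genes outside the fat pathway, among them the brush border enzymes Anpep and Sis and the lactase gene Lct, was 2831 to 5676 FPKM in control mice and 958 to 3808 FPKM in MYO5B-knockout mice. Of these, Lct was measured at 114 to 241 FPKM in control mice and at most 3.57 FPKM in MYO5B-knockout mice, listed at 0 in mouse 3. The mean in knockout mice was below that in control mice for 9 of the 10 and above it for Alpi, the intestinal alkaline phosphatase, with 109, 540 and 426 FPKM in control mice and 170, 1005, 1081 and 878 FPKM in knockout mice. The summed level of 8 crypt and proliferation genes was 58.6 to 207 FPKM in control and 145 to 330 FPKM in knockout mice. Mki67, Pcna, Mcm5, Mcm6 and Ccnb1 were higher in every knockout mouse than in any control mouse, and Top2a overlapped. Olfm4 and Lgr5 overlapped too, but their highest values came from controls and their lowest from knockout mouse 3. Olfm4 ranged from 10.9 to 106 FPKM among controls and from 2.45 to 74.3 FPKM among knockouts. Lgr5 reached 0.407 FPKM among controls and 0.296 FPKM among knockouts, and was listed as 0 for knockout mouse 3. Leukocyte genes summed to 21.3 to 52.0 FPKM in control and 4.25 to 20.4 FPKM in knockout mice. The highest of them in each control was Cd3g, which ranged from 9.03 to 25.2 FPKM among controls and from 1.02 to 6.98 FPKM among knockouts. Not every leukocyte gene was lower. Itgam reached 1.72 FPKM among controls, below knockout mice 5, 6 and 7 (2.21 to 2.89 FPKM) and above knockout mouse 3 (0.0951 FPKM). For Csf1r the knockout range (0.552 to 0.952 FPKM) lay within the control range (0.387 to 1.31 FPKM). In bulk RNA fewer cells of a type and less RNA per cell cannot be told apart, and the part of these shifts in the values of the 10 genes was not tested.

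The other apolipoprotein genes did not pass the test. Apoa1, the main structural protein of high-density lipoprotein and an early component of chylomicrons, was measured at 13429, 10408 and 13544 FPKM in controls 2, 4 and 5. In MYO5B-knockout mice 3, 5, 6 and 7 it was measured at 4660, 4947, 5885 and 8724 FPKM. No knockout mouse reached the lowest control mouse, but the log2 fold change of -1.08 (SE 0.44) did not pass the test (limma's adjusted p = 0.243). With DESeq2 on recovered reads, where 11.6% of all genes were called, Apoa1 was called lower (-1.38, adjusted p = 0.0233).

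Apoa4 encodes apolipoprotein A-IV, which the intestine secretes on chylomicrons after fat intake. It was measured at 119.7, 2249 and 2480 FPKM in controls 2, 4 and 5. The values of MYO5B-knockout mice 3, 5, 6 and 7 were 58.3, 2905, 2378 and 2139 FPKM. The spread within each group came from the library that stood apart, and the groups overlapped. The log2 fold change was 0.14 with a confidence interval of -3.36 to 3.64, and without the 3 libraries of high mt-Nd6 it was 0.056 with an interval of -0.48 to 0.59. Its sign turned under median-ratio scaling, edgeR and DESeq2 (-0.15, -0.019 and -0.053).

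Apob encodes the structural protein of the chylomicron. Its level was 24.9, 123.8 and 133.1 FPKM in controls 2, 4 and 5. In MYO5B-knockout mice 3, 5, 6 and 7 it was measured at 25.5, 150.6, 205.6 and 136.6 FPKM. The 2 libraries that stood apart held the lowest value of their group, and the groups overlapped. A log2 fold change of 0.46 was found (SE 0.80, limma's adjusted p = 0.808). Leaving out the 3 libraries of high mt-Nd6 gave 0.33 (SE 0.21, adjusted p = 0.299).

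Mttp, which loads lipid onto apolipoprotein B, was measured at 504, 669 and 628 FPKM in controls 2, 4 and 5. Levels in MYO5B-knockout mice 3, 5, 6 and 7 were 454, 903, 1028 and 752 FPKM. Knockout mouse 3 lay below all controls and the other 3 knockout mice above them. The log2 fold change was 0.33 (SE 0.35, limma's adjusted p = 0.664). Leaving out the 3 libraries of high mt-Nd6 gave 0.45 (adjusted p = 0.168).

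Among the enzymes that rebuild triglyceride, Dgat1 joins an acyl chain to diacylglycerol. It was measured at 692, 571 and 643 FPKM in controls 2, 4 and 5. In MYO5B-knockout mice 3, 5, 6 and 7 it was measured at 299, 260, 332 and 382 FPKM. All knockout values were below all control values. Dgat1 varied least of the 10 genes within groups, with a pooled SD of 0.21 on the log2 scale. The log2 fold change was -1.01 (SE 0.26, 95% confidence interval -1.57 to -0.44), which missed the threshold with an adjusted p of 0.0713 in limma. It passed without the 3 libraries of high mt-Nd6 (-0.92, adjusted p = 0.0322), where 12.4% of all genes were called, under a stricter filter at a mean of 1 FPKM (adjusted p = 0.0479, with 4.17% of all genes called) and with DESeq2 (-1.31, adjusted p = 0.00644).

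Mogat2 makes the diacylglycerol that Dgat1 uses from absorbed monoacylglycerol. Its level was 186, 299 and 317 FPKM in controls 2, 4 and 5. MYO5B-knockout mice 3, 5, 6 and 7 held 97.7, 204, 231 and 254 FPKM. The groups overlapped through control mouse 2. This gave a log2 fold change of -0.49 (SE 0.45, limma's adjusted p = 0.604). It was -0.43 without the 3 libraries of high mt-Nd6 (SE 0.18, adjusted p = 0.143).

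Cd36, a membrane receptor for long-chain fatty acids, was the lowest of the 10 genes and the most variable but for Apoa4. It was measured at 0.533, 15.5 and 23.2 FPKM in controls 2, 4 and 5, which came from 21, 853 and 1448 reads. In MYO5B-knockout mice 3, 5, 6 and 7 it was measured at 0.0768, 5.56, 2.91 and 2.00 FPKM, from 3, 342, 212 and 161 reads. Controls 4 and 5 lay above all knockout mice, whereas control 2 lay below 3 of the 4. This gave a log2 fold change of -1.95 (SE 1.35, limma's adjusted p = 0.492). Without control mouse 2 and MYO5B-knockout mouse 3, Cd36 was called lower (-2.53, SE 0.45, adjusted p = 0.0167), where 6.52% of all genes were called. Without control mouse 2 alone the value was -3.59 (adjusted p = 0.156), and without MYO5B-knockout mouse 3 alone it was -0.90 (adjusted p = 0.615). Endothelium and fat also express Cd36. Endothelial markers summed to 0.177 to 1.40 FPKM in the control and knockout libraries and to 0.615 to 1.83 FPKM in the LPA-treated libraries. The 5 adipocyte markers summed to at most 0.227 FPKM in any of the 10 libraries. Of these, Adipoq and Lep were listed at 0 throughout, whereas Plin1, Cfd and Retn had reads in some libraries (up to 0.118, 0.177 and 0.101 FPKM).

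The carriers Fabp1 and Fabp2 bind fatty acids in the cytosol. Fabp1, the liver type, was measured at 10638, 7871 and 10643 FPKM in controls 2, 4 and 5. The values of MYO5B-knockout mice 3, 5, 6 and 7 were 6929, 7571, 8331 and 6764 FPKM. Knockout mouse 6 overlapped control mouse 4, and the log2 fold change of -0.38 did not pass the test (SE 0.43, limma's adjusted p = 0.679). Fabp2, the intestinal type, was measured at 4893, 6395 and 10199 FPKM in controls 2, 4 and 5. In MYO5B-knockout mice 3, 5, 6 and 7 it was measured at 1925, 2455, 5045 and 5791 FPKM. The groups overlapped, and a log2 fold change of -0.995 was found (SE 0.56, limma's adjusted p = 0.386).

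**Figure D3:**
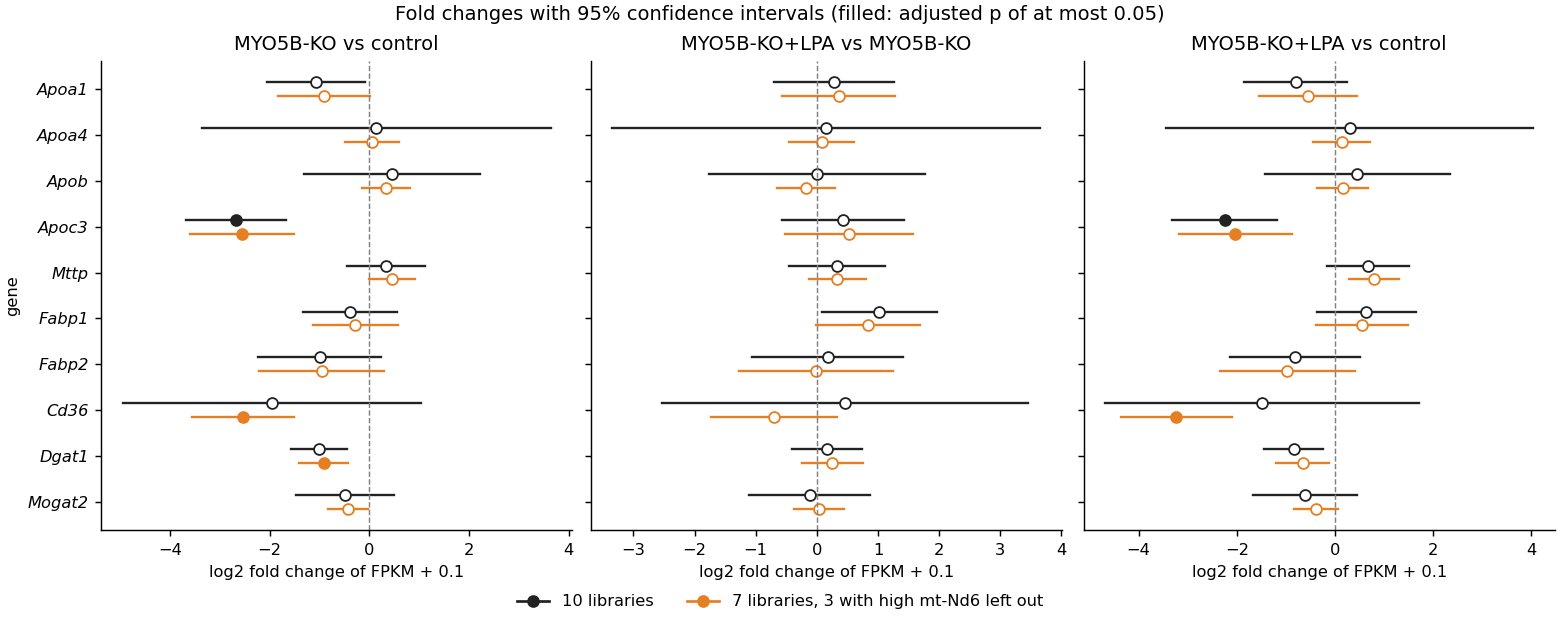
Points give the log2 fold change of FPKM + 0.1 for each gene in the 3 comparisons, with lines for the 95% confidence interval, in black for all 10 libraries and in orange for the 7 libraries left without the 3 of high mt-Nd6. Apoc3 is past the threshold in both comparisons with control mice (-2.67 and -2.25), and the intervals of Apoa4, Apob and Cd36 narrow when the 3 libraries are left out.

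LPA treatment was addressed by comparing the 3 LPA-treated with the 4 vehicle-treated MYO5B-knockout mice. None of the 10 genes passed the test, and limma called 0 of 15729 genes (0%), with 459 genes at an unadjusted p under 0.05. Neither did edgeR call any gene, and DESeq2 called 7 (0.0445%), none of them among the 10. The median log2 fold change of the 10 genes was 0.23, beside 0.11 over all genes.

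Fabp1 was the member whose groups did not overlap, as was the case in the higher direction for 3.56% of all genes. Its level was 9270, 19387 and 18586 FPKM in LPA-treated mice 1, 4 and 5, beside 6764 to 8331 FPKM in vehicle-treated knockout mice. Mice 4 and 5 lay above all other libraries, and mouse 1 within the control range. The log2 fold change was 1.02 (95% confidence interval 0.077 to 1.96), with an unadjusted p of 0.0366 and an adjusted p of 1.00 in limma. It stayed between 0.83 and 1.36 over the alternatives that were run. LPA-treated mice 4 and 5 also held 17.9 and 26.3 FPKM of 5 summed hepatocyte genes, among them 8.74 and 10.6 FPKM of the albumin gene Alb, whereas LPA-treated mouse 1 held 2.84 FPKM. Summed fibroblast genes were at 5.47 and 5.12 FPKM in mice 4 and 5 and at 0.822 FPKM in mouse 1. Summed endothelial genes were at 1.61 and 1.83 FPKM in mice 4 and 5 and at 0.615 FPKM in mouse 1. The liver expresses Fabp1, Apoa1, Apoc3, Apob and Mttp too. MYO5B-knockout mouse 7 held the highest Alb (47.8 FPKM) and the lowest Fabp1 of the 10 libraries. The part of RNA from liver or from other cell types in these values was not tested.

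The other genes overlapped between LPA-treated and vehicle-treated knockout mice. Apoc3 was measured in LPA-treated mice 1, 4 and 5 at 211, 689 and 438 FPKM. Mouse 1 was the lowest and mouse 4 the highest of all 7 knockout mice (log2 fold change 0.42, 95% confidence interval -0.57 to 1.42). Apoa1 was measured at 5614, 11709 and 5429 FPKM, of which mouse 4 lay within the control range (0.27, interval -0.71 to 1.26). Dgat1 was measured at 347, 422 and 302 FPKM (0.17, interval -0.40 to 0.73). The intervals reach to both sides of 0 for all 3 genes.

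Mttp was measured in LPA-treated mice 1, 4 and 5 at 1111, 1129 and 672 FPKM, with mice 1 and 4 above all other libraries (log2 fold change 0.33, SE 0.35). Apob was measured at 150.7, 136.7 and 51.6 FPKM, lowest in the library of high mt-Nd6 (0.00018, SE 0.80). Apoa4 was measured at 2722, 2465 and 184.8 FPKM, again lowest in mouse 5 (0.16, SE 1.58). The levels of mice 1 and 4 lay within the range of vehicle-treated mice 5, 6 and 7 for both Apoa4 and Apob.

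Fabp2 was measured in LPA-treated mice 1, 4 and 5 at 2305, 7386 and 3430 FPKM (log2 fold change 0.18, SE 0.56). Mogat2 was measured at 253, 217 and 90.4 FPKM (-0.12, SE 0.45), and Cd36 at 1.41, 2.63 and 2.46 FPKM (0.47, SE 1.35). Cd36 in LPA-treated mice was below control mice 4 and 5 and above control mouse 2. The sign of the Cd36 value turned to -0.70 without the 3 libraries of high mt-Nd6.

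Against the same control mice, the LPA-treated mice had 1 of the 10 genes called, again Apoc3 (log2 fold change -2.25, SE 0.48, limma's adjusted p = 0.0434), where 2.32% of all genes were called, 0.776% lower and 1.54% higher. The adjusted p was between 0.0531 and 0.140 in 9 of the 10 fits that each left out 1 mouse, and 0.0304 in the fit without MYO5B-knockout mouse 3. It was 0.0670 with edgeR and 0.0699 under median-ratio scaling. In limma it was 0.0304 without the 2 libraries that stood apart and 0.0424 without the 3 of high mt-Nd6. Apoc3 was called in 10 of the 23 alternatives run here. This comparison and that of vehicle-treated knockout mice share the control mice, so the 2 calls are not independent.

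Dgat1 also stayed below every control mouse in the LPA-treated mice (log2 fold change -0.84, SE 0.27, limma's adjusted p = 0.153), and Mttp above every control mouse (0.67, SE 0.38, adjusted p = 0.413). Lower values without overlap were found for 6.38% of all genes and higher values for 20.5%. Without the 3 libraries of high mt-Nd6, Dgat1 gave -0.66 (adjusted p = 0.124) and Mttp 0.79 (adjusted p = 0.0647) in limma. Fabp1 gave 0.64 with overlap (SE 0.46, adjusted p = 0.511), and Cd36 gave -1.48 (SE 1.45, adjusted p = 0.635). Without control mouse 2 and MYO5B-knockout mouse 3, Cd36 was called lower (-3.12, adjusted p = 0.00457), where 9.98% of all genes were called. The remaining values were -0.80 for Apoa1, -0.82 for Fabp2, -0.61 for Mogat2, 0.46 for Apob and 0.30 for Apoa4.

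Ratios between 2 of the genes within a library do not depend on how libraries are scaled, and were chosen after the values were seen. The ratio of Apoa1 to its neighbour Apoc3 was 4.74, 8.36 and 6.93 in controls 2, 4 and 5. It was 11.0, 22.4, 23.6 and 25.8 in MYO5B-knockout mice 3, 5, 6 and 7, and 26.6, 17.0 and 12.4 in LPA-treated mice 1, 4 and 5. All 7 knockout mice lay above the controls, which shows unequal levels of the 2 transcripts and not which of them was stable. The ratio of Mttp to Dgat1 was 0.727 to 1.17 in control, 1.52 to 3.47 in knockout and 2.23 to 3.20 in LPA-treated mice. Fabp1 over Fabp2 was 1.04 to 2.17 in control, 1.17 to 3.60 in knockout and 2.62 to 5.42 in LPA-treated mice, with overlap between the first and the second.

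**Figure D4:**
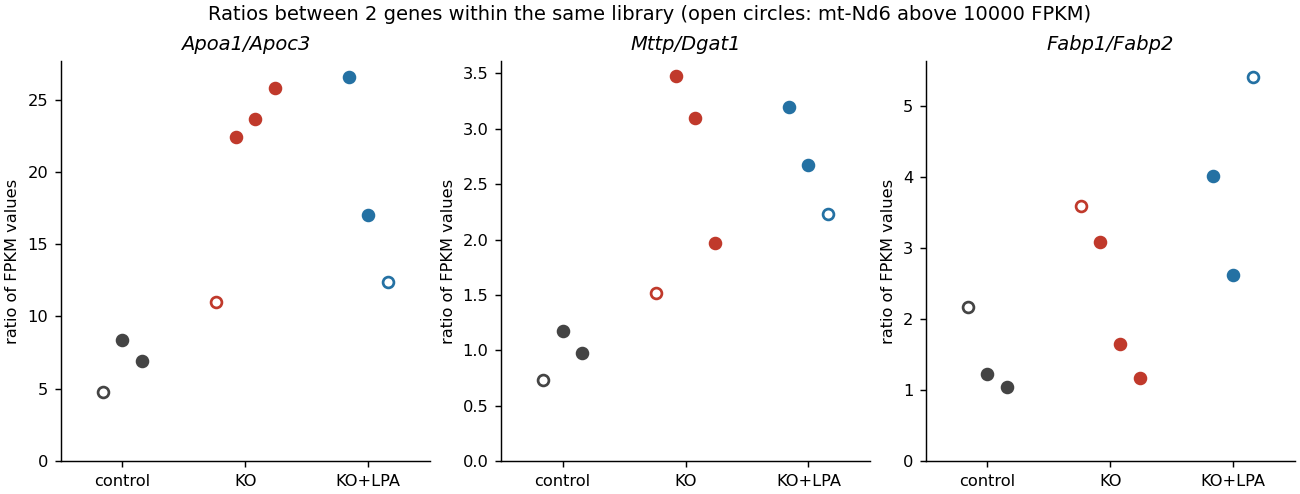
Points give, for every mouse, the ratio of FPKM between 2 genes of the same library on an axis from 0, with open circles for the libraries with mt-Nd6 above 10000 FPKM. Apoa1 over Apoc3 and Mttp over Dgat1 separate the control mice (4.74 to 8.36 and 0.727 to 1.17) from the knockout mice, and Fabp1 over Fabp2 does not.

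Apoa1 and Apoa4, which lie at opposite ends of the chromosome 9 cluster, differed in another way. Their ratio was 112, 80.0 and 29.4 in the libraries of high mt-Nd6 (control 2, MYO5B-knockout 3 and LPA-treated 5) and between 1.70 and 5.46 in the other 7. Apoa4 was thus low in 1 library of each group and high in the others. Leaving out the 3 libraries brought the SD within groups, on the log2 scale, from 2.51 to 0.17 for Apoa4, from 2.11 to 0.63 for Cd36, from 1.24 to 0.23 for Apob, from 0.63 to 0.14 for Mogat2 and from 0.42 to 0.16 for Mttp. The SD of Apoa1, Apoc3, Fabp1, Fabp2 and Dgat1 did not become smaller, with values of 0.50, 0.68, 0.42, 0.79 and 0.23 without these libraries. The cause of this difference between the genes was not tested.

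The genes whose pattern was most like that of a member were found by the root mean square difference of log2 levels over the 10 libraries, each gene centred on its own mean. Dgat1 was matched most closely by Slc35c2 (0.11), Pgpep1 (0.12) and Ifngr2 (0.13). Apoc3 was nearest to Khk (0.25), which encodes the fructose-phosphorylating enzyme ketohexokinase and had means of 599, 99.9 and 131 FPKM in control, knockout and LPA-treated mice, and then to Cox7a1 and Aamdc (0.35 each). Fabp1 was nearest to Spns1 (0.21), then to Rbp2 (0.22), a retinol carrier of the same protein family with means of 9756, 7495 and 12324 FPKM, and to Lamb2 (0.25). The level of Lamb2 was near the added 0.1 FPKM, with means of 0.0967, 0.0460 and 0.219 FPKM. Apoa1 was nearest to Erich4 (0.18) and Slc35c2 (0.23). Mttp was nearest to Dnajc3, Gcc2 and Itga3 (0.16 to 0.17), and Mogat2 to Pla2g6 (0.14), Tada3 (0.16) and Fam73b (0.18). The matches of Apob were Pawr (0.18), Ranbp10 (0.19) and Rfx5 (0.19), of which Rfx5 was low, with means of 0.238, 0.430 and 0.403 FPKM. Those of Fabp2 were Dpep1 (0.34), Trmt1l (0.35) and Nmi (0.36). Apoa4 was nearest to Tnfsf13 (0.38), 1110008F13Rik (0.40) and Ces2c (0.44), and Cd36 to Slc6a20a (0.47), Klf15 (0.57) and Ugt2b36 (0.60). The differences were not divided by a gene's own SD over the 10 libraries, which was 2.05 for Cd36 and 0.495 for Dgat1. They therefore do not rank the genes by closeness of match. Among the 10 genes themselves, Apoa1 and Dgat1 were the most alike (0.23). These values describe 10 libraries that share the depth and mitochondrial content given above.

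Of 58 other genes of fat absorption, listed by role, 57 were found in the table and 56 were tested. In the comparison of MYO5B-knockout with control mice, 1 was called higher and 2 lower, beside the 2.01% called over all genes. The counts were 3 higher and 5 lower without the 2 libraries that stood apart (Acsl4 and Slc27a2 among them). They were 3 and 7 without the 3 libraries of high mt-Nd6, 1 and 3 with edgeR, and 2 and 7 with DESeq2. Over all genes, 6.52% were called without the 2 libraries, 12.4% without the 3, 443 of 15729 with edgeR and 11.6% with DESeq2. The median log2 fold change over the 56 was 0.076, below the 0.29 of all genes. Uptake and activation had 1 of 9 genes called higher, triglyceride and phospholipid synthesis 1 of 11 lower and the transcription factors 1 of 10 lower. Particle assembly and other apolipoproteins (11 genes), vesicle export (11) and lipid droplet breakdown (4) had none called by limma. Against control mice, LPA-treated mice had the same 3 genes called, and 0 of the 56 were called by limma between LPA-treated and vehicle-treated knockout mice.

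The gene called higher was Acsl3, an acyl-CoA synthetase of the endoplasmic reticulum and lipid droplets. It was measured at 0.802, 4.64 and 4.74 FPKM in controls 2, 4 and 5. Levels in MYO5B-knockout mice 3, 5, 6 and 7 were 16.8, 32.7, 17.4 and 12.7 FPKM, and those in LPA-treated mice 1, 4 and 5 were 30.1, 36.4 and 16.5 FPKM. All knockout mice lay above all controls, with log2 fold changes of 2.77 (SE 0.60, limma's adjusted p = 0.0456) and 3.26 (SE 0.64, adjusted p = 0.0315). The first of these lost its call when any 1 of the 10 mice was left out (adjusted p between 0.0527 and 0.146). It was 2.02 without the 2 libraries that stood apart (adjusted p = 0.0303).

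The genes called lower were Nr1h3 and Agpat3. Nr1h3 encodes the sterol-sensing nuclear receptor LXR alpha and was measured at 76.4, 46.7 and 44.1 FPKM in controls 2, 4 and 5. In MYO5B-knockout mice it lay between 12.2 and 26.3 FPKM, and in LPA-treated mice between 12.9 and 15.7 FPKM, without overlap. The log2 fold changes were -1.67 (SE 0.32, adjusted p = 0.0323) and -1.91 (SE 0.34, adjusted p = 0.0197) in limma. Agpat3, an acyltransferase of phospholipid synthesis, was measured at 23.7, 27.9 and 29.8 FPKM in control mice. It lay between 9.54 and 11.7 FPKM in MYO5B-knockout mice and between 8.17 and 13.7 FPKM in LPA-treated mice. The log2 fold changes were -1.35 (SE 0.27, adjusted p = 0.0353) and -1.40 (SE 0.29, adjusted p = 0.0355). With 1 mouse left out, the first comparison kept Nr1h3 in 1 of 10 fits (without MYO5B-knockout mouse 3) and Agpat3 in 3 of 10 (without control mouse 2, MYO5B-knockout mouse 3 or LPA-treated mouse 1), with adjusted p up to 0.104 and 0.156. Nr1h3 also lost its call under median-ratio scaling (-1.96, adjusted p = 0.0545) and with edgeR (-1.92, adjusted p = 0.0545). Without the 2 libraries that stood apart, limma's adjusted p was 0.00603 for Nr1h3 and 0.0146 for Agpat3. Without the 3 libraries of high mt-Nd6 it was 0.00352 and 0.00955. Of the 22 alternatives run, 11 called Nr1h3 and 15 called Agpat3.

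The genes with the largest change of the other roles did not pass the main test. Lpin2, a phosphatidate phosphatase, was measured at 5.72 to 15.0 FPKM in control and 9.49 to 43.0 FPKM in MYO5B-knockout mice (log2 fold change 1.36, adjusted p = 0.228). Lipe, the hormone-sensitive lipase, was measured at 21.2 to 34.1 FPKM in control and 7.20 to 15.7 FPKM in knockout mice (-1.44, adjusted p = 0.0575). Ppargc1a, a coactivator of oxidative metabolism, was measured at 2.98 to 5.82 FPKM in control and 0.424 to 2.02 FPKM in knockout mice (-1.90, adjusted p = 0.0912). Vti1a, a SNARE of chylomicron transport vesicles, gave 0.68 (adjusted p = 0.299), and Apoh, which has the low mean of 1.77 FPKM in control mice, gave -2.25 (adjusted p = 0.243). Lipe was called lower in 10 of the 22 alternatives run, with all libraries kept under median-ratio scaling (adjusted p = 0.0264), quantile scaling (0.0297), a pseudocount of 1 (0.0480), the filter at 1 FPKM (0.0410), library totals without the 10 and mitochondrial genes (0.0355), edgeR (0.0314) and DESeq2 (0.000242). Ppargc1a was called lower in 6 of 22, under median-ratio scaling (0.0179), quantile scaling (0.00833), edgeR (0.0171) and DESeq2 (3.45e-08) and without the 2 or the 3 libraries (0.0184 and 0.0135). Lpin2 was called higher in 4 of 22, among them DESeq2 (1.13, adjusted p = 0.0346) and the fit without the 2 libraries that stood apart (1.43, adjusted p = 0.0275).

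**Figure D5:**
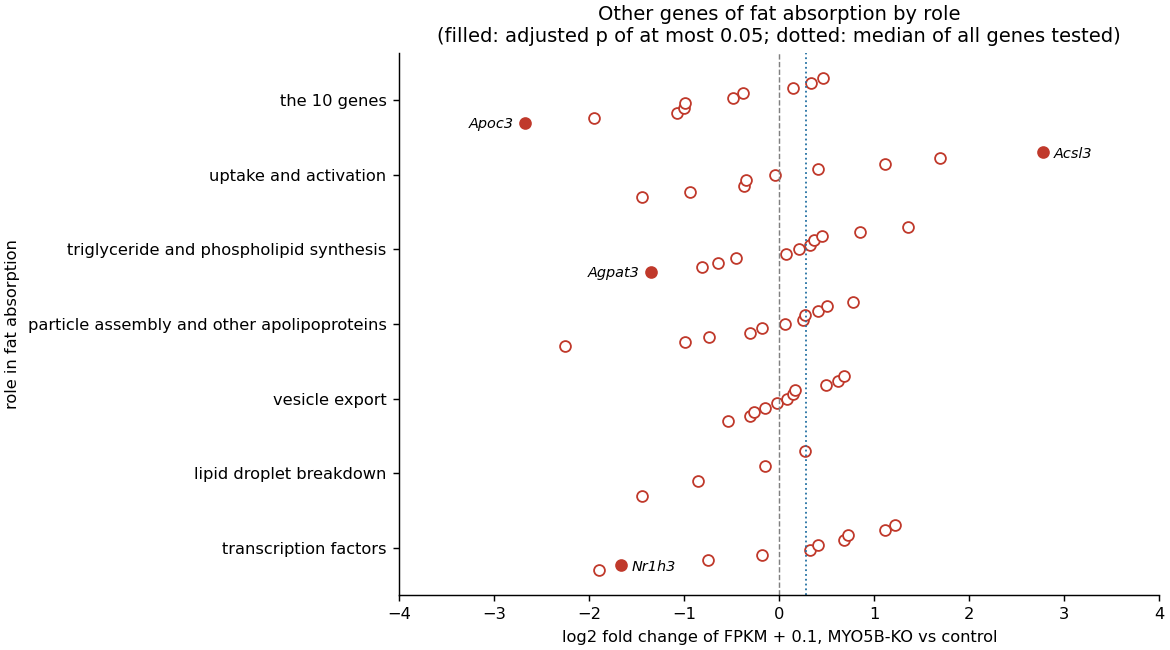
Circles give the log2 fold change of FPKM + 0.1 between MYO5B-knockout and control mice for the 10 genes and the 56 others by role, filled where the adjusted p is at most 0.05, with a dotted line at the median of all genes (0.29). Apoc3 (-2.67), Nr1h3 (-1.67), Agpat3 (-1.35) and Acsl3 (2.77) are filled, and the genes of vesicle export lie between -0.54 and 0.68.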

How the data were processed

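Epithelial cells of the jejunum of 10 mice were profiled by sequencing of poly-A RNA, with no strand mark stated. The submitters' processing notes name STAR 2.5, TopHat, HTSeq 0.6.1, DESeq2 and the build GRCm38, without saying what each was used for. The authors deposited FPKM for 35275 genes, scaled to the fragments counted on genes with no stated scaling between libraries, and lists of their own fold changes and p-values, which were not used. Those lists also hold deposited read counts of single genes, of which 63 were compared: FPKM multiplied by gene length gave whole multiples of 1 step for 100% of values (within 0.01), and 63 of 63 counts equalled the reads so recovered. A further 7 columns of values per sample were not used. Overlapping genes held 0.000488% (Apoa4) and 0.0134% (Fabp2) as many reads as the member.

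The log2 of FPKM + 0.1 was compared with limma 3.58.1 in R 4.3.3 for the 15729 genes whose mean reached 0.1 FPKM, all 10 described here included, in a model of the 3 groups (trended variance, two-sided, Benjamini-Hochberg adjustment over all genes, call at an adjusted p of at most 0.05). Fold changes on this scale understate the change of low genes, and p-values measure only the spread between these mice. Alternatives were pseudocounts of 1 and 0.01, no filter, a filter at 1 FPKM, median-ratio and quantile scaling, library totals without the 10 genes and mitochondrial genes, leaving out mice, and edgeR 4.0.16 and DESeq2 1.42.0 on recovered reads. The code was tested on simulated data. The other pathway genes named are those called between MYO5B-knockout and control mice and the most changed of each role, and the 3 nearest patterns of each gene are named, except 1 that is not reported here. The members and lists were chosen with earlier results of these data known. At 1.09e+07 to 2.45e+07 reads per library, 1 read on 1 kb equalled 0.0409 to 0.0913 FPKM.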

Additional observations from a re-analysis of the deposited data

Results flagged for a closer look

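In groups of 4 to 10 mice, the most extreme library was set against the others by Dixon's ratio, which allowed only the MYO5B-knockout group. About 1 in 20 such groups passes by chance, and 2 of 18 did. Apoa4 in MYO5B-knockout mouse 3 stood far below the rest, with 58.3 FPKM against 2139 to 2905 FPKM in the other 3 mice. On the log2 scale the gap was 0.922 of the range. Lpin2 in the same mouse was also far below the rest, with 9.49 FPKM against 33.4 to 43.0 FPKM (0.831 on the log2 scale). This is the library with 12601 genes detected and 18.0% of reads on mitochondrial genes.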

How the results depend on the processing

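Of the 10 genes, 1 was called between MYO5B-knockout and control mice, 2 with a filter at 1 FPKM or without the 2 libraries of few detected genes, 3 without the 3 libraries of high mt-Nd6 (chosen after seeing the data), 3 with DESeq2 and 0 to 1 with each mouse left out. Between LPA-treated and control mice the count of 1 became 0 without a filter, under median-ratio scaling, without the 2 libraries lacking Y reads and with edgeR, 2 without the 2 or the 3 libraries and with DESeq2, and 0 to 1 with each mouse left out. Between LPA-treated and vehicle-treated knockout mice it was 0 throughout. The sign of Apoa4 turned between knockout and control mice under median-ratio scaling (-0.15), edgeR (-0.019) and DESeq2 (-0.053), and its values with 1 mouse left out spanned -1.29 to 1.49, where those of Apob spanned -0.33 to 1.12. Between LPA-treated and vehicle-treated mice, quantile scaling gave -0.11 for Apoa4, -0.21 for Apob, -0.071 for Fabp2 and -0.0015 for Dgat1. Leaving out the 2 libraries of few genes gave -1.19 for Apoa4, -0.66 for Apob, -0.099 for Fabp2 and -0.59 for Cd36. Leaving out those lacking Y reads gave -1.86 for Apoa4, -0.95 for Apob, -0.026 for Mttp and -0.32 for Cd36. Leaving out the 3 of high mt-Nd6 gave -0.17 for Apob, -0.0099 for Fabp2, -0.70 for Cd36 and 0.035 for Mogat2. EdgeR gave -0.0069 for Apoa4, -0.17 for Apob and -0.16 for Cd36, and DESeq2 -0.16 for Apob and -0.12 for Cd36. Apob was -0.0040 with a pseudocount of 1, -0.081 under median-ratio scaling and -0.048 with totals lacking the 10 and mitochondrial genes. With each mouse left out, the ranges were -1.19 to 1.43 (Apoa4), -0.66 to 0.49 (Apob), -0.29 to 0.55 (Fabp2), -0.59 to 1.08 (Cd36), -0.42 to 0.34 (Mogat2) and -0.087 to 0.47 (Apoa1). Between LPA-treated and control mice, Apoa4 was -0.076 under median-ratio scaling, -1.14 without the 2 libraries of few genes, -0.37 without those lacking Y reads, -0.026 with edgeR and -0.051 with DESeq2 (-1.14 to 1.57 with each mouse left out), and Apob was -0.33 without the 2 libraries (-0.33 to 0.95). The cause was not tested.

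Over all genes, 316 were called between MYO5B-knockout and control mice (177 higher, 139 lower), and 188 without a filter, 598 under median-ratio scaling (223 and 375), 804 under quantile scaling (366 and 438), 1032 and 1943 without the 2 and the 3 libraries, 443 with edgeR (179 and 264), 1830 with DESeq2 (804 and 1026) and 44 to 448 with each mouse left out. Between LPA-treated and control mice 365 were called (243 and 122), and 626 under quantile scaling (300 and 326), 490 under median-ratio scaling (221 and 269), 1579 and 1414 without the 2 and the 3 libraries, 377 with edgeR (180 and 197), 1489 with DESeq2 and 75 to 719 with each mouse left out. With the replicate block, which LPA-treated and control mice allow for 2 shared numbers (consensus correlation -0.024), 1 of the 10 genes was called (Apoc3, -2.26, limma's adjusted p = 0.0444). The numbers are not stated to pair mice. No paired analysis was possible because, in the other comparisons, the groups share only mouse number 5.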
